A study of Mus musculus with 30 samples.

Results

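The genes of nuclear factor kappa B (NF-kB) and of the proteins that hold or steer it were followed in mouse macrophages with and without Ticam2. The set was defined by name and not by a cut on measured values, but it was chosen with earlier results of these data known. It holds 5 subunit genes (Nfkb1, Nfkb2, Rel, Rela and Relb), 3 genes of classical inhibitors of NF-kB (Nfkbia, Nfkbib and Nfkbie) and 2 genes of nuclear IkB proteins (Nfkbiz and Bcl3). All 10 were found among the 32361 gene IDs of the count table, and all 10 passed the filter on low counts that left 15131 genes for testing.

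RNA was sequenced from macrophages that had been differentiated from bone marrow in medium with L929 cell supernatant, a source of macrophage colony-stimulating factor. The marrow donors were wild-type mice (WT) or Ticam2-/- mice (KO), 3 animals of each genotype, on the C57BL/6J strain named for the marrow, and the 3 libraries of a group each held the cells of 1 animal. Cells of both genotypes were untreated (UT), or were exposed to lipopolysaccharide (LPS, 10 ng/mL) or lipoteichoic acid (LTA, 100 ng/mL) for 2 h or 6 h, which made 10 groups of 3 libraries. The 2 ligands were given at different doses, and the harvest description names 6 h alone. The age and sex of the mice, and the part of Ticam2 that the deletion removes, are not stated in the labels used here. Ticam2 encodes TRAM, the adaptor that brings TRIF to Toll-like receptor 4, the LPS receptor, whereas LTA is sensed chiefly by Toll-like receptor 2. The comparisons ask how each genotype responded to each ligand and how the response of Ticam2-/- cells differed from that of WT cells.

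NF-kB is a family of dimeric transcription factors that rests in the cytoplasm of an unstimulated macrophage, held there by IkB proteins. A Toll-like receptor activates the IkB kinases, the inhibitors are marked and degraded, and the freed dimers enter the nucleus. Genes of several subunits and inhibitors are themselves NF-kB targets, so the pathway rebuilds its own inhibitors and enlarges its own pool of subunits. Nuclear IkB proteins act differently, on dimers that are already bound to DNA, where they can help or restrain transcription.

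Levels are given as TMM-normalised CPM, read counts brought to a common library size by factors that set the typical gene equal between libraries. Differences are log2 fold changes ± standard error with n = 3 per group, and a gene was called when its Benjamini-Hochberg adjusted p from edgeR's quasi-likelihood test was under 0.05 over the 15131 genes. Total counts ran from 10641070 to 13521660 in the 18 libraries of untreated and 6 h cells, against 1334784 to 2658329 in the 12 libraries of 2 h. The shallower set contains no untreated library, so a difference of 2 h cells from untreated or from 6 h cells cannot be told apart from a difference between the library sets; KO against WT at 1 time lies within a set. It also stood apart in other transcripts, as CPM of the library total. Summed over 6 erythroid markers, libraries held 5599 to 7733 in the deeper set and 0 to 0.831 at 2 h. Over 6 fibroblast and stroma markers the sums were 5.10 to 78.4 and 194 to 347, and over the 4 hepatocyte markers present they were 20.8 to 29.3 and 41.1 to 85.7, with Alb at 0 in the deeper set and Ttr at 0 in the 2 h set. The sums over B cell, T cell, granulocyte and dendritic cell markers were at most 24.6 in any library. The 8 macrophage markers were present in all libraries, with sums of 19130 to 30700 and 30040 to 35950. Ticam2 itself had 121 to 260 counts in WT and 5 to 26 in KO libraries of the deeper set, and 15 to 28 and 1 to 14 at 2 h. Its KO-to-WT differences were -4.01 ± 0.21 in untreated cells, -3.797 ± 0.156 with LPS at 6 h and -4.489 ± 0.165 with LTA at 6 h. At 2 h they were smaller, -1.63 ± 0.33 with LPS and -1.814 ± 0.369 with LTA, on few counts. What lies behind the smaller Ticam2 difference in the 2 h set was not tested. In bulk RNA, fewer cells of a kind and less RNA per cell cannot be told apart.

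All 10 genes were higher than in untreated cells with both ligands, at both times and in both genotypes, beside 19.1 to 36.6% of all genes. At 2 h each of the 10 genes was higher in KO than in WT, beside 9.05% of all genes with LPS and 7.79% with LTA. By 6 h this order had turned: 9 of the 10 were lower in KO with LPS (beside 30.6% of all genes) and 10 of 10 with LTA (beside 28%) on TMM scaling, while with total counts Rel no longer differed with LPS and Nfkbiz was higher in KO with both ligands. Nfkb2 shows the pattern most plainly. With LPS it reached 106 ± 2.61 CPM at 2 h and 502 ± 18.1 at 6 h in WT (SD, n = 3), but 211 ± 7.39 and 119.5 ± 0.462 in KO. Nfkbiz departed from it, with 6 h levels that lay close together in WT and KO.

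**Figure D1:**
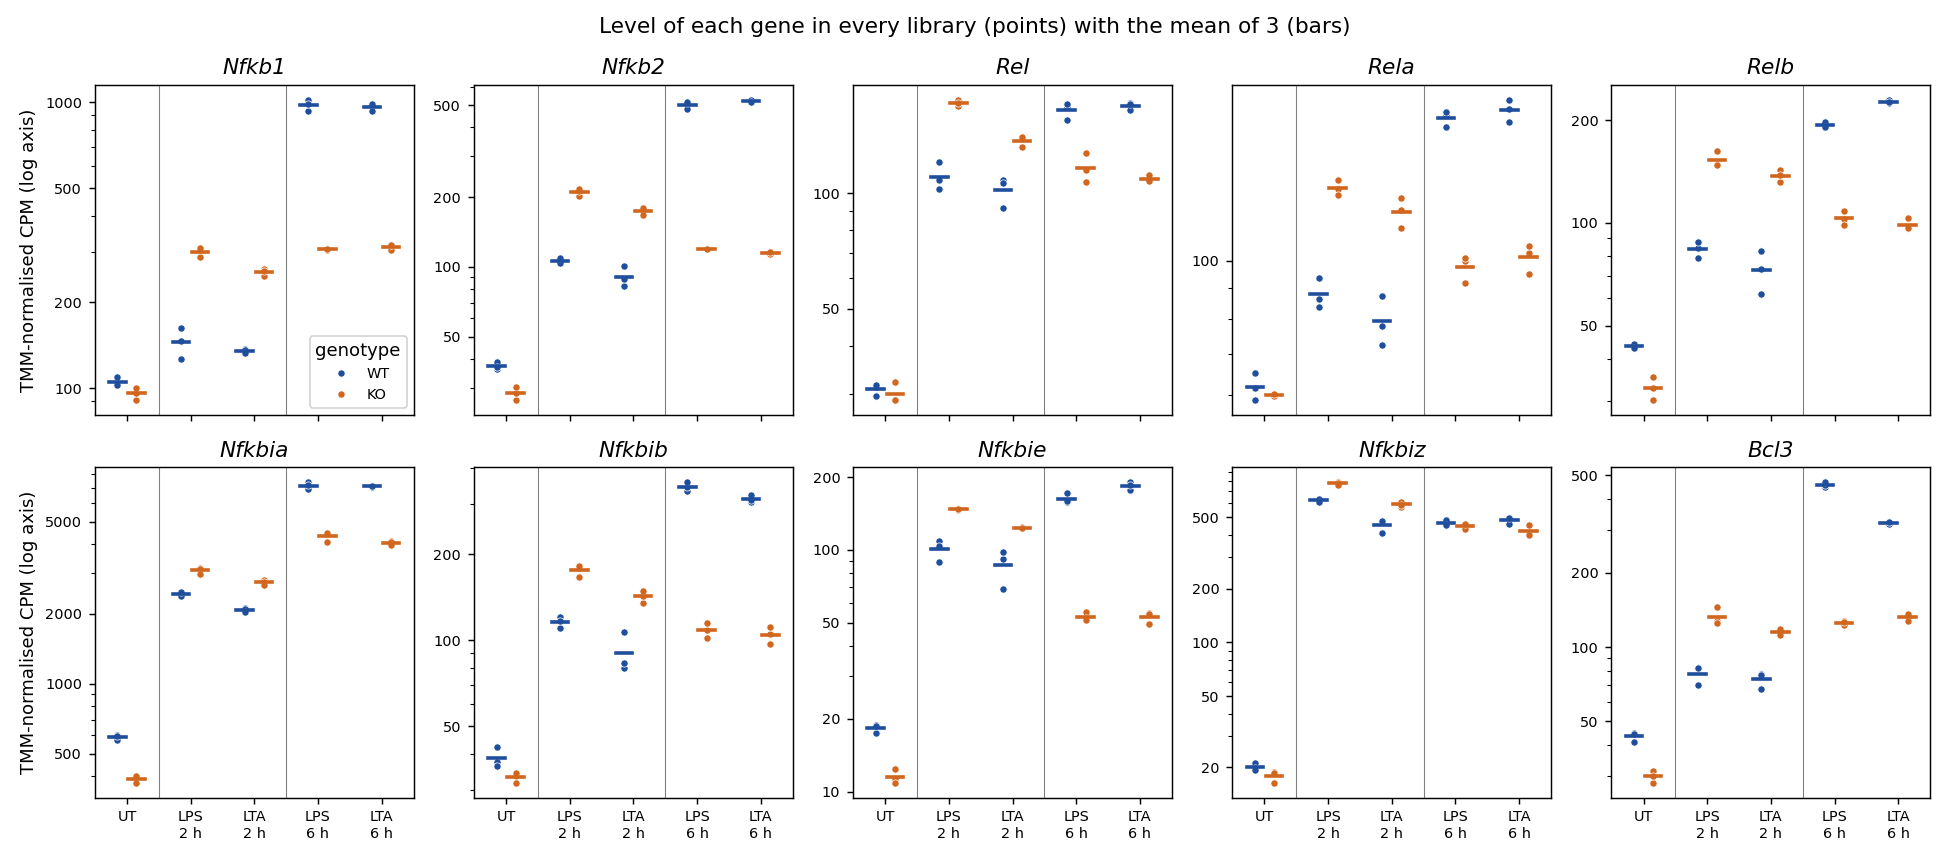
TMM-normalised CPM of the 10 genes in every library, on a log axis, by condition (untreated, then LPS and LTA at 2 h and 6 h); points are single libraries, short bars the mean of 3, blue WT and orange KO, and the vertical lines part the untreated, 2 h and 6 h libraries. At 2 h every KO library lies above every WT library of the same ligand for all 10 genes, and at 6 h below for all but Nfkbiz with LPS; with total counts in place of TMM, Rel with LPS and Nfkbiz with both ligands are not lower in KO at 6 h.

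Among the subunit genes, Nfkb1 (ENSMUSG00000028163, chromosome 3, 135584655 to 135691547, minus strand; all gene positions are on GRCm38) encodes p105, the precursor of the p50 subunit and itself an inhibitor that holds dimers and the kinase Tpl2. Untreated libraries stood at 109.6, 102 and 103 CPM in WT against 90.8, 96.4 and 101 in KO. With LPS for 2 h they reached 126, 146 and 163 in WT against 288, 305 and 309 in KO, and with LPS for 6 h 935, 1020 and 986 in WT against 306, 305 and 308 in KO. The KO libraries thus stood at nearly 1 level at 2 h and 6 h, whereas the WT libraries were far lower at 2 h than at 6 h. The KO log2 difference from WT was 1.04 ± 0.06 at 2 h (edgeR adjusted p = 4.1e-19) and -1.68 ± 0.04 at 6 h (edgeR adjusted p = 7.4e-37), a 3.20-fold lower level. LTA gave 138, 136 and 133 CPM at 2 h in WT against 247, 262 and 257 in KO. At 6 h it gave 932, 984 and 984 in WT against 305, 316 and 316 in KO, so no WT and KO library of 1 condition overlapped in any of the 5 conditions, although the untreated difference of -0.13 ± 0.05 was not called (edgeR adjusted p = 0.068).

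Nfkb2 (ENSMUSG00000025225, chromosome 19, 46304320 to 46312385, plus strand) encodes p100, the precursor of p52 and the inhibitor that retains Relb dimers in the non-canonical pathway. Its exons share bases with Psd and AC114539.1 on the opposite strand, whose reads cannot be told apart from its own because the labels and headers used here name no strand setting for the counting. To show what the promoters of these genes hold, the 300 bases around RefSeq starts (250 before and 50 after, GRCm38.p6) were searched on both strands for the 10-letter NF-kB consensus motif, with overlapping matches merged. Of the 7 members in the table, 5 held a match (Nfkb2, Rel, Nfkbia, Nfkbie and Bcl3), and Rela and Nfkbib held none. Nfkb1, Relb and Nfkbiz had no window there and were not searched. Counted the same way by gene, a match was found for 5.14% of the 27025 genes in the table, and counted by window in 4.51% of all 32851 promoters of that length. Nfkb2, which showed the largest KO-to-WT differences of the set at 6 h, has several RefSeq starts. Of its matches, 3 are printed here in lower case with the match in capitals (GRCm38.p6, plus strand), to show that they differ in letters. They begin at positions -39 and -11 from 1 RefSeq start and at position 11 from another.
Nfkb2, chr19:46304689-46304717: gatcgtcacGGGAATTCCCCccctcgggg
Nfkb2, chr19:46304716-46304745: ggggccgaaaGGGGCTTTCCcggctggagc
Nfkb2, chr19:46305695-46305724: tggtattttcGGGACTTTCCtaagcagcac

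These letters are a description of the windows, not evidence of binding. Of the 7 searched members, only Nfkb2 held a match to the gamma-activated site TTCNNNGAA, which 9.55% of all genes in the table (8.3% of all promoters) hold. None of the 7 held the interferon-stimulated response element (GAAA, 2 free bases and GAAA), found for 3.99% of all genes (3.44% of all promoters).

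In untreated cells Nfkb2 stood at 38.8, 36.0 and 37.0 CPM in WT against 26.5, 28.5 and 30.3 in KO, a called difference of -0.39 ± 0.06. LPS brought it to 106, 104 and 109 in WT against 203, 212 and 218 in KO at 2 h. At 6 h the libraries held 482, 508 and 516 in WT against 119.8, 119 and 119.8 in KO. The WT libraries stood higher at 6 h than at 2 h, and the KO libraries lower. The KO-to-WT difference was 0.99 ± 0.07 at 2 h and -2.07 ± 0.04 at 6 h, where the KO level was 4.20-fold lower (edgeR adjusted p = 3.5e-41). LTA gave the same order, with 82.5, 88.8 and 101 in WT against 176, 179 and 167 in KO at 2 h. The 6 h libraries with LTA held 519.5, 526 and 515 in WT against 116, 114 and 115 in KO, a difference of -2.18 ± 0.04. Genotypes did not overlap in any condition, and the 6 h calls stayed lower in KO with total counts (-1.55 with LPS and -1.74 with LTA).

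Rel (ENSMUSG00000020275, chromosome 11, 23736847 to 23770970, minus strand) encodes c-Rel, a subunit with a transactivation domain that is prominent in blood cells. The match in its promoter window reads, on the minus strand and with the match in capitals:
Rel, chr11:23771042-23771070: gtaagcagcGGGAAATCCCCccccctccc

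Untreated libraries held 29.7 to 31.7 CPM of Rel in WT and 28.9 to 32.2 in KO, and these ranges overlapped. With LPS for 2 h the ranges were 102 to 121 in WT and 168 to 175 in KO, a difference of 0.63 ± 0.08. With LPS for 6 h they were 155 to 171 in WT and 107 to 128 in KO, a difference of -0.50 ± 0.05 (edgeR adjusted p = 1.4e-12). On TMM the KO libraries at 2 h of LPS overlapped the WT libraries at 6 h. As CPM of the library total they stood above them, at 178 to 184 against 108 to 119. Its lower level in KO at 6 h of LPS was lost with total counts, where the difference was 0.03 (edgeR adjusted p = 0.67). With LTA the difference was 0.44 ± 0.08 at 2 h and -0.63 ± 0.05 at 6 h, the latter -0.20 with total counts.

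Rela (ENSMUSG00000024927, chromosome 19, 5637483 to 5648130, plus strand), the gene of the p65 subunit that carries most of the canonical NF-kB activity, had the smallest rise of the 10 from its untreated level at 6 h in both genotypes. WT libraries held 58.8 to 65.2 CPM untreated and 167 to 176 with LPS at 6 h, a rise of 1.48 ± 0.05. In KO the untreated range was 59.6 to 60.1, which overlapped that of WT, and the LPS 6 h range was 91.9 to 101. At 2 h of LPS the KO libraries, at 128 to 136, lay above the WT libraries at 84.0 to 93.5. The KO-to-WT differences were 0.59 ± 0.08 at 2 h and -0.82 ± 0.05 at 6 h with LPS, and 0.60 ± 0.08 and -0.81 ± 0.05 with LTA. With total counts the 6 h differences shrank to -0.30 and -0.37, both still called.

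Relb (ENSMUSG00000002983, chromosome 7, 19606217 to 19629438, minus strand), whose product pairs with p52 in the non-canonical pathway, was already lower in untreated KO cells. Libraries held 43.7, 44.2 and 42.9 CPM in untreated WT and 35.2, 32.7 and 30.2 in untreated KO, a difference of -0.42 ± 0.06 (edgeR adjusted p = 5.8e-07). With LPS for 2 h it stood at 78.8 to 88.1 in WT and 147 to 163 in KO. With LPS for 6 h WT libraries held 192 to 198, below the 224 to 229 with LTA, while KO libraries held 98.6 to 109 and 96.3 to 103. The KO-to-WT difference was 0.86 ± 0.08 with LPS and 0.94 ± 0.08 with LTA after 2 h. At 6 h it was -0.91 ± 0.05 with LPS (-0.39 with total counts) and -1.20 ± 0.05 with LTA.

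Among the classical inhibitors, Nfkbia (ENSMUSG00000021025, chromosome 12, 55489410 to 55492647, minus strand) encodes IkB-alpha, the inhibitor that is degraded within minutes of stimulation and then resynthesised as the fastest negative feedback of the pathway. Its promoter is a textbook NF-kB target. The 250 bases before its RefSeq start (chr12:55492648-55492897, GRCm38.p6, minus strand) are printed with the consensus match in capitals, because this feedback gene had the smallest adjusted p of the set in untreated cells. The 250 bases before the start of Nfkbie (chr17:45555450-45555699, GRCm38.p6, plus strand), which had the largest untreated difference of the set, are set beside it.
Nfkbia: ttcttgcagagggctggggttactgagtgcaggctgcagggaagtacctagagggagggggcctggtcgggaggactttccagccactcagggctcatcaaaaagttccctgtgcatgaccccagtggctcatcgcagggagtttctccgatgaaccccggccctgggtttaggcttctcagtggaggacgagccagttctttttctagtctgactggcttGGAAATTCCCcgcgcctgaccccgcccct
Nfkbie: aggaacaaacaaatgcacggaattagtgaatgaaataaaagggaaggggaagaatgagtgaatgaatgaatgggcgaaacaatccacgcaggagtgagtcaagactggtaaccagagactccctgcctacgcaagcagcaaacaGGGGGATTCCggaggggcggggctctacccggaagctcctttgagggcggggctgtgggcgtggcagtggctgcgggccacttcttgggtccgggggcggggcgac

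Untreated libraries held 603, 572 and 596 CPM of Nfkbia in WT against 394, 399 and 374 in KO. The genotypes did not overlap, and the difference was -0.60 ± 0.04 (edgeR adjusted p = 5.6e-18). With LPS for 2 h Nfkbia stood at 2419, 2391 and 2478 in WT against 3162, 3141 and 2979 in KO. At 6 h it stood at 6915, 7380 and 7165 in WT against 4081, 4428 and 4475 in KO. Measured from its own untreated level, the KO rise was 2.99 ± 0.04 at 2 h and 3.48 ± 0.04 at 6 h, against 2.04 ± 0.04 and 3.60 ± 0.04 in WT. At 6 h the responses differed by -0.12 ± 0.05 (edgeR adjusted p = 0.048), although the levels differed by -0.73 ± 0.04. That small difference in response turned to 0.38 with total counts. It lost its call without untreated WT replicate 2 or 3, untreated KO replicate 1 or 2 or KO LPS 6 h replicate 1, with values of -0.124 to -0.076 (edgeR adjusted p = 0.069 to 0.2). LTA gave 2043 to 2131 CPM in WT and 2671 to 2790 in KO at 2 h, and 7092 to 7133 and 3955 to 4111 at 6 h.

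Nfkbib (ENSMUSG00000030595, chromosome 7, 28758251 to 28767512, minus strand) encodes IkB-beta, an inhibitor that is degraded more slowly. Part of its exons overlap Ccer2 and Sirt2 on the opposite strand. It stood at 36.2 to 42.4 CPM in untreated WT and 31.7 to 34.4 in untreated KO, a called difference of -0.23 ± 0.07 (edgeR adjusted p = 0.018). The call was lost without untreated WT replicate 1 (-0.15, edgeR adjusted p = 0.24) or untreated KO replicate 3 (-0.19, edgeR adjusted p = 0.13). It was also lost without untreated KO replicate 1, where the difference was the same size (-0.227, edgeR adjusted p = 0.052). The treated groups differed more. LPS for 2 h gave 111, 121 and 117 in WT against 179.6, 166 and 182 in KO. LPS for 6 h gave 333, 344 and 357 in WT against 102, 108 and 115 in KO, a 3.18-fold lower level in KO (log2 -1.67 ± 0.05, edgeR adjusted p = 7.4e-33). As with Nfkb2, the KO level was lower at 6 h than at 2 h, with no overlap between the libraries. With LTA the differences were 0.66 ± 0.09 at 2 h and -1.59 ± 0.05 at 6 h.

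Nfkbie (ENSMUSG00000023947, chromosome 17, 45555703 to 45563169, plus strand) encodes IkB-epsilon, a delayed inhibitor that follows IkB-alpha in the feedback. Untreated libraries held 18.9, 17.4 and 18.6 CPM in WT against 11.3, 12.4 and 10.9 in KO, a difference of -0.67 ± 0.09, and the genotypes did not overlap. With LPS for 2 h the libraries held 89.2, 109 and 104 in WT against 146, 148 and 147 in KO. With LPS for 6 h they held 158, 172 and 159 in WT against 55.3, 52.1 and 51.5 in KO. Between 2 h and 6 h the WT mean thus went from 101 to 163 CPM and the KO mean from 147 to 52.9. As CPM of the library total the WT means were 113 and 114, and the KO means were 155 and 53.1, so the order of the times in WT depended on the scaling and that in KO did not. The KO-to-WT difference was 0.54 ± 0.08 at 2 h (edgeR adjusted p = 9.7e-07) and -1.62 ± 0.06 at 6 h (edgeR adjusted p = 2.8e-31). With LTA the 6 h libraries held 177, 190 and 185 in WT against 49.2, 55.0 and 54.1 in KO.

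Of the nuclear IkB proteins, Nfkbiz (ENSMUSG00000035356, chromosome 16, 55811375 to 55838899, minus strand) encodes IkB-zeta, which is made early in the response and is needed for a group of secondary genes that includes Il6 and Lcn2. Of the 10 genes it had the largest response in every treated group. Untreated libraries held 21.2, 19.9 and 19.3 CPM in WT against 19.0, 18.7 and 16.4 in KO, and the difference of -0.17 ± 0.08 was not called (edgeR adjusted p = 0.19). With LPS for 2 h it reached 629, 632 and 614 in WT against 785, 784 and 765 in KO, which were 31.0-fold and 43.3-fold above untreated. With LPS for 6 h it stood at 485, 456 and 454 in WT against 462, 431 and 458 in KO, and the genotypes overlapped. The highest group was thus KO with LPS at 2 h, and both genotypes stood lower at 6 h of LPS than at 2 h.

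The 6 h difference in Nfkbiz depended on the scaling. With LPS it was -0.05 ± 0.05 on TMM (edgeR adjusted p = 0.39), -0.12 and called with relative log expression factors and with DESeq2, and 0.48 with total counts, where it was called higher in KO. With LTA the libraries held 499.6, 457 and 499.8 in WT against 410.4, 452 and 398 in KO, a difference of -0.21 ± 0.05 on TMM (edgeR adjusted p = 8.5e-05) and 0.23 with total counts. With TMM and with total counts its KO-to-WT difference lay above those of the other 9 genes at 6 h with either ligand. At 2 h of LTA the WT libraries held 469, 481 and 410.2 and the KO libraries 575, 610.3 and 590.2, a called difference of 0.39 ± 0.05.

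Bcl3 (ENSMUSG00000053175, chromosome 7, 19808462 to 19822770, minus strand) encodes a nuclear IkB protein that binds p50 and p52 homodimers on DNA. It lies 179024 bases from Relb, and its exons share bases with Gm16175 on the opposite strand. Its promoter window held a match that begins at position 3 from the RefSeq start (GRCm38.p6, minus strand):
Bcl3, chr7:19822734-19822763: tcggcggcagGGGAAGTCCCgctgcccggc

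Bcl3 showed the largest difference between the ligands of the 10 genes, in WT at 6 h. WT libraries held 447, 457 and 467 CPM with LPS at 6 h and 319, 316 and 321 with LTA, a difference of 0.52 ± 0.04 (edgeR adjusted p = 2.9e-15). KO libraries held 123, 128 and 126 with LPS and 132, 128 and 137 with LTA, a difference of -0.07 ± 0.05 that was not called. The genotype difference between the ligands was itself -0.59 ± 0.06 (edgeR adjusted p = 3.1e-11). Untreated libraries stood at 41.1, 44.8 and 44.4 in WT against 28.1, 31.4 and 30.0 in KO (-0.54 ± 0.06). At 2 h of LPS they stood at 81.8, 69.9 and 82.1 in WT against 127, 146 and 125 in KO. The KO-to-WT difference with LPS went from 0.78 ± 0.08 at 2 h to -1.86 ± 0.04 at 6 h, and with LTA from 0.64 ± 0.08 to -1.27 ± 0.04.

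The responses of each genotype were compared with its own untreated cells. In WT all 10 genes were called higher with LPS at 6 h, where 36.6% of all genes were called higher, and with LTA at 6 h, where 35.4% were. Their median rise was 3.19 with LPS and 3.11 with LTA, from 1.48 for Rela to 4.53 for Nfkbiz with LPS, beside medians of 0.03 and 0.02 over all genes. With total counts the all-gene medians of these WT responses moved to -0.66 and -0.58, and those of KO to -0.19 and -0.18, and all 10 genes stayed higher. In KO all 10 rose at 6 h too, beside 25.8% of all genes with LPS and 25.7% with LTA, by medians of 2.01 and 1.94.

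At 2 h the order of the genotypes was the other way. All 10 genes were called higher than untreated in WT with LPS (beside 19.6% of all genes) and with LTA (beside 19.1%), by medians of 1.55 and 1.25. In KO they rose by medians of 2.46 with LPS (beside 26.9% of all genes called higher) and 2.14 with LTA (beside 26.4%). Nfkb1 and Rela, the genes of p50 and p65, rose least at 2 h in WT, by 0.49 ± 0.06 and 0.50 ± 0.07 with LPS. In KO the same genes rose by 1.65 ± 0.05 and 1.14 ± 0.07. These 2 h values carry the difference between the library sets, which the comparison of KO with WT at the same time does not.

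**Figure D2:**
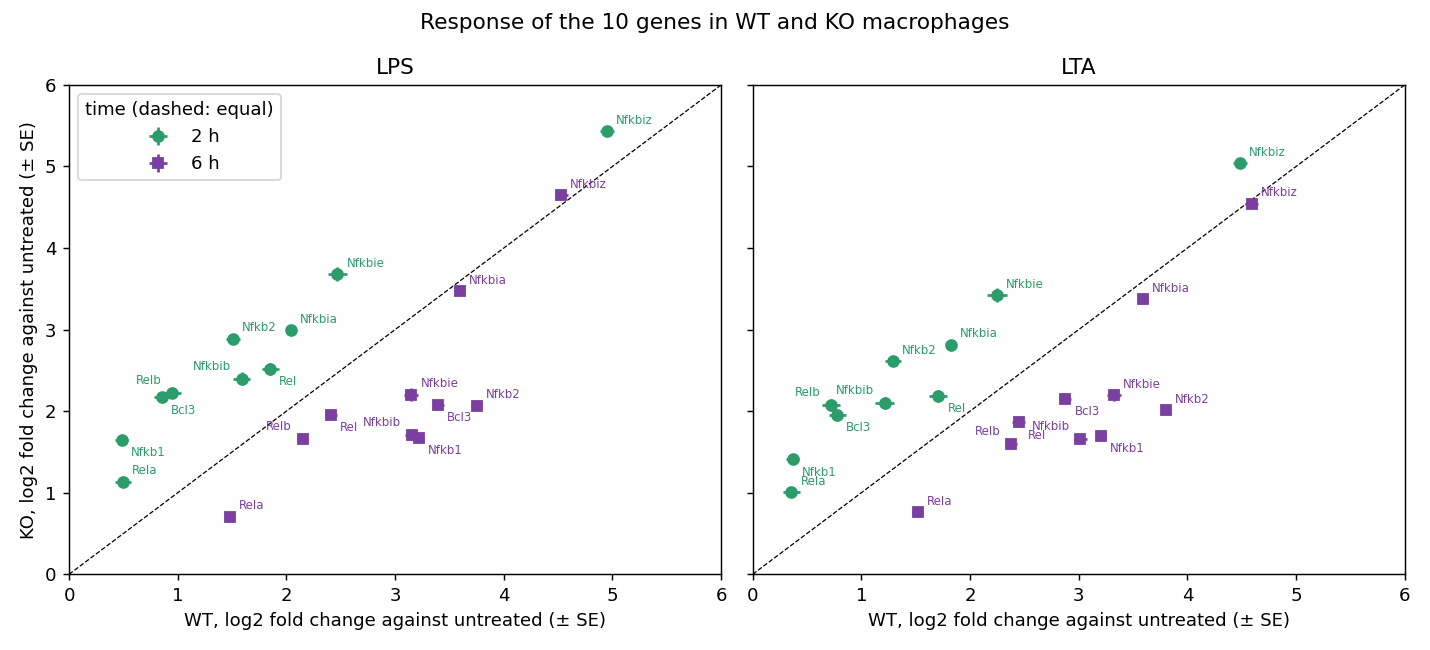
Log2 fold change against untreated cells (± SE, n = 3 per group) in KO (vertical axis) and WT (horizontal axis), for LPS (left) and LTA (right), with green circles for 2 h, purple squares for 6 h and a dashed line where the genotypes are equal. All 10 genes lie above the line at 2 h; at 6 h 9 lie below it with LPS and Nfkbiz slightly above, and with LTA all 10 lie on or below it, on TMM scaling (with total counts Rel, Relb, Nfkbia and Nfkbiz move to or above the line with LPS, and Nfkbia and Nfkbiz with LTA).

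Tested directly as the difference between genotypes in the response, 9 genes had a smaller response in KO to LPS at 6 h, beside 23.5% of all genes, on TMM scaling, against 6 smaller and 2 larger with total counts. With LTA at 6 h 9 were smaller on TMM scaling, beside 20% of all genes, against 7 smaller and 2 larger with total counts. Nfkbiz was the gene that did not pass on TMM, and the larger responses were those of Nfkbia and Nfkbiz. At 2 h all 10 had a larger response in KO, beside 9.86% of all genes with LPS and 8.97% with LTA. The total-count splits at 6 h have no share of all genes beside them. With total counts the all-gene medians of these 6 h differences moved from 0.02 to 0.52 with LPS and from 0.03 to 0.45 with LTA. The medians of the differences over the 10 genes, on TMM, were -0.86 and -0.77 at 6 h and 1.06 and 1.02 at 2 h. The size differed between genes: with LPS at 6 h it ran from -1.68 ± 0.07 for Nfkb2 and -1.55 ± 0.06 for Nfkb1 to -0.12 ± 0.05 for Nfkbia and 0.12 ± 0.09, not called, for Nfkbiz. The contrasts of 1 genotype share its untreated libraries, so they are given side by side and not as independent support for each other.

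The genotypes were then compared within each condition. In untreated cells 6 of the 10 genes were called lower in KO (Nfkb2, Relb, Nfkbia, Nfkbib, Nfkbie and Bcl3), where 7.5% of all genes were called lower, and the other 4 did not pass. The genotypes did not overlap for 8 of the 10, beside 30.6% of all genes. The lower genes were all 3 classical inhibitors, 2 of the 5 subunit genes and 1 of the 2 nuclear IkB genes. Nfkb1 was called too without untreated KO replicate 3, at -0.162 (edgeR adjusted p = 0.044). The summed macrophage markers were 29230 to 30700 CPM of the total in untreated WT and 27500 to 27820 in untreated KO, the fibroblast and stroma markers 5.65 to 6.67 and 5.10 to 5.43, and the dendritic cell markers 1.79 to 1.94 and 0.408 to 1.63. None of these sums overlapped between the genotypes, and their part in the result was not tested.

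With LPS at 6 h 9 of 10 were lower in KO on TMM (all but Nfkbiz), where 30.6% of all genes were called lower, against 8 lower and 1 higher with total counts. With LTA at 6 h 10 of 10 were lower on TMM, beside 28% of all genes, against 9 lower and 1 higher with total counts. The higher gene was Nfkbiz with both ligands. The libraries of the genotypes did not overlap for 9 genes with LPS, beside 65.4% of all genes, and for 10 with LTA, beside 64.9%. The medians on TMM were -1.26 and -1.24, and over all genes 0.01 and 0.01. The scale of these 6 h values depends on the normalisation, since the mean TMM factor was 0.699 in WT with LPS and 0.748 in WT with LTA, against 1.004 and 1.012 in the KO groups. The shares of 30.6% and 28% are on TMM, and shares with total counts are not given here, so the total-count splits have no share beside them. With total counts the all-gene median moved to 0.54 and 0.44. Nfkb1, Nfkb2, Nfkbib, Nfkbie and Bcl3 lay at or under -0.83 with both ligands on that scaling too. The summed fibroblast and stroma markers moved with genotype at 6 h, at 41.4 to 44.7 CPM of the total in WT and 11.5 to 14.4 in KO with LPS, and 76.3 to 78.4 and 10.00 to 11.7 with LTA, with none of the 6 at 0. The 5 dendritic cell markers summed to 8.83 to 11.04 in WT and 1.55 to 2.37 in KO with LPS, and to 8.24 to 9.87 and 1.10 to 1.51 with LTA, with Clec9a at 0 in WT with LPS. The 5 granulocyte markers summed to 19.3 to 19.9 and 11.4 to 13.6 with LPS, and to 21.3 to 24.6 and 12.6 to 13.1 with LTA, with Ly6g and Elane at 0 in all of these groups but KO with LTA. The 5 B cell markers were higher in KO, at 1.10 to 1.39 in WT and 1.58 to 2.51 in KO with LPS, and 0.890 to 1.46 and 1.51 to 1.55 with LTA, with Pax5 at 0 in WT with LPS. The summed macrophage markers were 19130 to 20620 in WT and 25770 to 27320 in KO with LPS, and 23710 to 23880 and 26580 to 27430 with LTA. The part of these markers in the result was not tested.

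**Figure D3:**
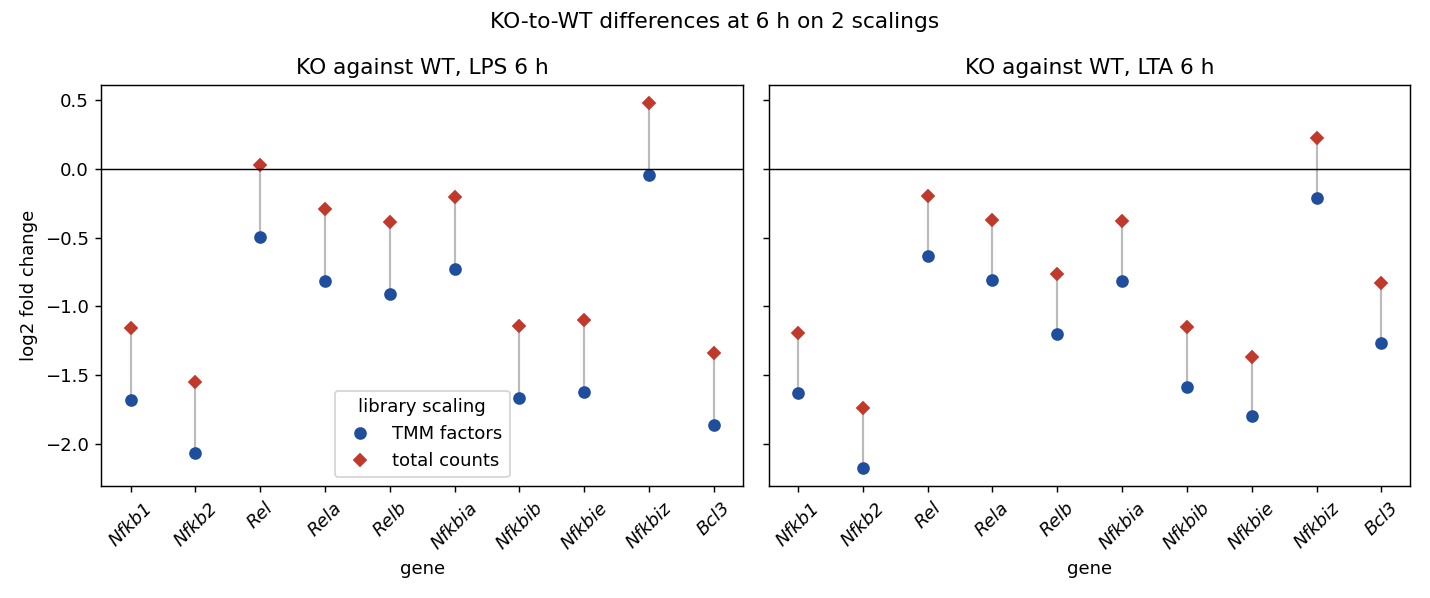
KO-to-WT log2 fold change of each gene at 6 h with LPS (left) and LTA (right), on TMM factors (blue circles) and on total counts (red diamonds), joined by a grey line. Total counts raise every value by about the shift of the all-gene median (0.54 with LPS and 0.44 with LTA); Rel with LPS and Nfkbiz with both ligands cross 0.

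At 2 h all 10 were higher in KO with LPS, where 9.05% of all genes were called higher, and with LTA, where 7.79% were. No KO library overlapped a WT library for any of them, beside 28.7% and 27.1% of all genes. The medians were 0.61 and 0.62, with the largest differences in Nfkb1 and Nfkb2 with LPS and in Relb and Nfkb2 with LTA. Total counts changed neither the calls nor the directions. Both genotypes were in the shallower library set, with 1447015 to 2407058 counts in WT and 1334784 to 2658329 in KO with LPS. The share of mitochondrially encoded counts was 5.43 to 5.99% in WT and 4.85 to 5.70% in KO with LPS, which overlap, and 6.20 to 6.87% and 4.94 to 5.53% with LTA, which do not. The summed macrophage markers at 2 h were 33960 to 34850 CPM of the total in WT and 30040 to 31680 in KO with LPS, and 32540 to 35950 and 32420 to 33640 with LTA. The sums of the other marker lists overlapped between the genotypes at 2 h with both ligands. The part of these shares and markers in the result was not tested.

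**Figure D4:**
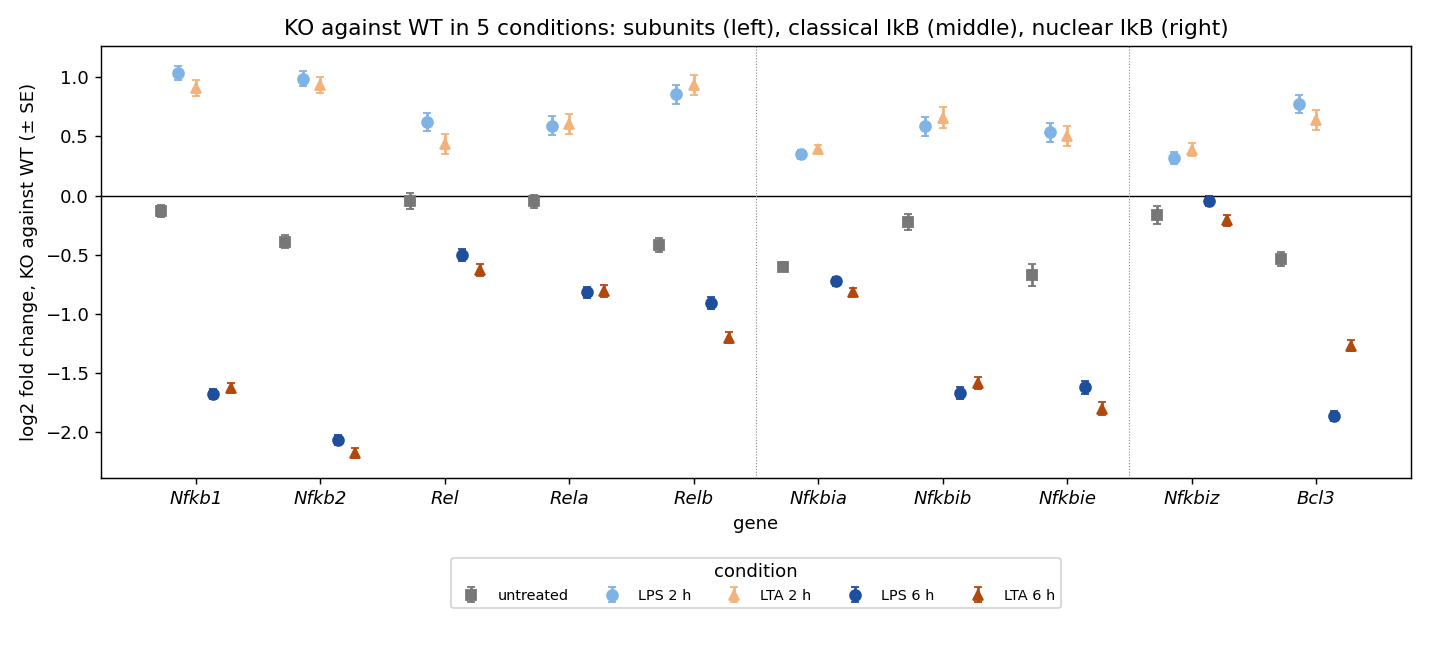
KO-to-WT log2 fold change (± SE, n = 3 per group, TMM) of each gene in the 5 conditions, subunits on the left, classical inhibitors in the middle and nuclear IkB proteins on the right. The 2 h points (light) lie above 0 for all 10 genes and the 6 h points (dark) below 0; with total counts the LPS 6 h point of Rel and both 6 h points of Nfkbiz lie above 0.

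The turn between the times was tested as a difference of the genotype differences. The 2 times lie in different library sets. A difference between the sets that is alike in both genotypes cancels here. One that depends on genotype does not, and it cannot be told apart from time. All 10 genes had a lower difference at 6 h than at 2 h with either ligand on TMM, and 9 with total counts. Over all genes 23.3% were called lower with LPS and 20.4% with LTA on TMM, and the medians of the 10 genes were -1.96 and -2.02. With total counts Nfkbiz turned to 0.25 with LPS and to -0.09, not called, with LTA. Being called higher in KO at 2 h and lower in KO at 6 h was met by 9 of 10 with LPS, beside 919 of 15131 genes (6.07%), and by 10 of 10 with LTA, beside 864 genes (5.71%). With total counts these were 8 with LPS, beside 2.71% of all genes, and 9 with LTA, beside 2.57%.

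LPS and LTA, at their different doses, were set against each other within each genotype. In WT at 6 h 4 of the 10 genes differed, where 31.8% of all genes were called in either direction. Nfkbib (0.14 ± 0.05) and Bcl3 (0.52 ± 0.04) were higher with LPS, and Relb (-0.23 ± 0.05) and Nfkbie (-0.18 ± 0.05) were higher with LTA. With total counts the split changed from 2 higher and 2 lower to 1 higher (Bcl3) and 7 lower. At 2 h Nfkbia, Nfkbib and Nfkbiz were higher with LPS in WT, by 0.22 ± 0.04, 0.37 ± 0.09 and 0.47 ± 0.05, beside 1.1% of all genes. The Nfkbib call at 6 h was lost without WT LTA replicate 1 or 2 or WT LPS replicate 2 or 3 (edgeR adjusted p = 0.066 to 0.18). At 2 h it was lost without WT LTA replicate 1 or 3 or WT LPS replicate 2 or 3 (edgeR adjusted p = 0.11 to 0.26).

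In KO no member differed between the ligands at 6 h by edgeR's quasi-likelihood test or by DESeq2, where 2.66% of all genes were called. Of the 10, 2 had an unadjusted p under 0.05, and without KO LPS 6 h replicate 1 the count called was 1, Nfkbia at 0.137. With all libraries its difference was 0.10 ± 0.04. At 2 h 6 members were higher with LPS in KO (Nfkb1, Nfkb2, Rel, Nfkbia, Nfkbib and Nfkbiz), by 0.18 to 0.40, beside 1.14% of all genes. This count was 3 without KO LTA 2 h replicate 1, where Nfkb1, Rel and Nfkbib lost their calls (edgeR adjusted p = 0.069 to 0.22). Nfkb1 also lost its call without KO LPS 2 h replicate 2 or 3, Rel without KO LPS 2 h replicate 2, Nfkbia without KO LTA 2 h replicate 3, and Nfkbib without KO LTA 2 h replicate 2 or KO LPS 2 h replicate 1 or 3 (edgeR adjusted p = 0.052 to 0.15). Whether WT and KO differed in the ligand difference was called for 2 members at 6 h, Relb (0.29 ± 0.07) and Bcl3 (-0.59 ± 0.06), beside 22.7% of all genes. With total counts it was called for 7, 6 of them higher and 1, Bcl3, lower. Without KO LPS 6 h replicate 2 it was called for 4, with Rel (0.192) and Nfkbiz (0.198) added. Nfkbiz was also added without WT LTA 6 h replicate 2, WT LPS 6 h replicate 1 or KO LTA 6 h replicate 2, Nfkbia without KO LPS 6 h replicate 1, and Nfkbie without WT LPS 6 h replicate 2. At 2 h it was called for 0 members by edgeR's quasi-likelihood test and by DESeq2, with 0 at an unadjusted p under 0.05, beside 0.126% of all genes.

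The rest of the pathway was read from 4 lists by role, and all listed genes were tested. Of 18 genes of the IkB kinases and the receptor-proximal chain, 4 higher and 11 lower were called in KO against WT with LPS at 6 h, with a median of -0.31; with total counts the call split was 10 higher and 6 lower and the median 0.21, so the list had no direction that held on both scalings. Over all genes 32.7% were called higher and 30.6% lower on TMM. With LTA at 6 h it was 2 higher and 10 lower (30.4% of all genes called higher and 28% lower), and with total counts 8 higher and 6 lower. At 2 h 7 were higher in KO and 0 lower with LPS, beside 9.05% of all genes called higher and 7.24% called lower, and 6 and 0 with LTA, beside 7.79% and 5.19%. With total counts the 2 h split was 6 higher and 2 lower with LPS and 4 higher and 0 lower with LTA. The 3 with the smallest p at 6 h of LPS were Map3k8, the kinase Tpl2 that p105 holds, Myd88, the shared receptor adaptor, and Irak2, a kinase of its complex. Irak2 ran the course of the subunit genes, at 58.5 ± 5.64 CPM in WT and 127 ± 4.64 in KO at 2 h of LPS and 299 ± 17.0 and 118 ± 1.44 at 6 h (SD, n = 3). Its differences were 1.09 ± 0.08 and -1.34 ± 0.04. Myd88 followed it with 0.50 ± 0.08 and -1.64 ± 0.05, while Map3k8 was called at 6 h (-1.76 ± 0.06) and had 0.16 ± 0.13 at 2 h, which was not called.

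Of 16 other inhibitors and regulators, 3 higher and 11 lower were called with LPS at 6 h (median -0.97; with total counts 5 higher and 11 lower and -0.44), beside 32.7% of all genes called higher and 30.6% lower. At 2 h of LPS 8 higher and 2 lower were called (median 0.44), beside 9.05% and 7.24%. With LTA the split was 3 higher and 11 lower at 6 h (with total counts 5 higher and 9 lower), beside 30.4% and 28% of all genes. At 2 h of LTA it was 9 higher and 3 lower, beside 7.79% and 5.19%. Traf1, a signalling adaptor, differed by 0.64 ± 0.06 at 2 h and -1.95 ± 0.05 at 6 h of LPS, and Tnip3, an A20-binding inhibitor, by 0.48 ± 0.04 and -1.63 ± 0.04. Tnfaip3, the gene of the ubiquitin-editing inhibitor A20, did not turn and was lower in KO at both times, with differences of -1.07 ± 0.06 at 2 h (edgeR adjusted p = 8.1e-22) and -1.63 ± 0.04 at 6 h. Nfkbid, the gene of the nuclear IkB protein IkB-NS, named here after its values were seen, was lower in KO at 2 h of LPS (-0.80 ± 0.13), where the 10 genes were higher. At 6 h of LPS it was higher in KO (0.31 ± 0.06, and 0.84 with total counts), where 9 of the 10 were lower on TMM and Nfkbiz was higher with total counts. With LTA its differences were -0.93 ± 0.14 at 2 h and -0.02 ± 0.06, not called, at 6 h (0.41 and called with total counts). In untreated cells the list held 1 higher and 6 lower calls, beside 5.96% of all genes called higher and 7.5% lower.

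Of 15 primary target genes of NF-kB in macrophages, 1 higher and 14 lower were called in KO with LPS at 6 h (median -1.63) and 0 higher and 14 lower with LTA (median -2.18), beside 30.6% and 28% of all genes called lower. With total counts the split was 2 higher and 13 lower with LPS (median -1.11) and 1 higher and 14 lower with LTA (median -1.75). The higher gene was Cd83, a surface marker of activated antigen-presenting cells, named with Tnf after their values were seen. Its difference was 0.32 ± 0.05 with LPS and 0.06 ± 0.05, not called, with LTA on TMM, and 0.84 and 0.50, both called higher, with total counts. Tnf, the gene of tumour necrosis factor, was called lower in KO with LPS on TMM (-0.25 ± 0.04) and higher with total counts (0.27). Il1rn, the interleukin 1 receptor antagonist, stood at 3323 ± 165 CPM in WT and 126 ± 6.31 in KO, a difference of -4.72 ± 0.05. Il1b, the cytokine it opposes, differed by -3.10 ± 0.04, and Ptgs2, the inducible cyclooxygenase, by -3.27 ± 0.04. At 2 h the list was split, with 7 higher and 4 lower with LPS (median 0.21), beside 9.05% of all genes called higher and 7.24% lower. With LTA it was 10 higher and 3 lower (median 0.38), beside 7.79% and 5.19%. Il1b differed by 0.21 ± 0.04 at 2 h of LPS, where Il1rn (0.23 ± 0.10) and Ptgs2 (0.12 ± 0.05) were not called. With LTA at 2 h Il1rn (0.60 ± 0.10), Ptgs2 (0.41 ± 0.05) and Il1b (0.23 ± 0.04) were all called higher in KO. Untreated KO cells already had 2 higher and 12 lower calls on both scalings, beside 5.96% and 7.5% of all genes on TMM. The medians there were -0.51 on TMM and -0.49 with total counts. The response to LPS at 6 h was smaller in KO for 13 and larger for 0 on TMM (median -0.85), beside 23.5% of all genes called smaller. With total counts it was smaller for 10 and larger for 3 (median -0.35).

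Of 6 secondary genes known to need IkB-zeta, 0 higher and 5 lower were called with LPS at 6 h (median -3.77; with total counts 1 higher and 5 lower and -3.25) and 0 higher and 6 lower with LTA (median -4.73; with total counts 0 higher and 6 lower and -4.29), beside 30.6% and 28% of all genes called lower. In the same libraries Nfkbiz RNA itself differed by -0.05 ± 0.05 with LPS, and by 0.48 with total counts. The gene that did not pass with LPS, named after its values were seen, was Csf2, a growth factor gene for granulocytes and macrophages (-0.11 ± 0.12, and 0.41 and called with total counts), which differed by -4.86 ± 0.08 with LTA. Il6, the cytokine gene, stood at 3879 ± 146 CPM in WT and 143 ± 10.2 in KO with LPS at 6 h, a difference of -4.77 ± 0.05 (edgeR adjusted p = 1.2e-53). Edn1, the endothelin gene, differed by -5.60 ± 0.08, and Lcn2, the gene of the iron-siderophore binding protein lipocalin, by -2.77 ± 0.05. At 2 h 1 higher and 3 lower were called with LPS, beside 9.05% of all genes called higher and 7.24% lower. With LTA it was 1 higher and 3 lower, beside 7.79% and 5.19%. With LPS Lcn2 was higher in KO (1.78 ± 0.26), Edn1 was lower (-1.42 ± 0.15), and Il6 (0.12 ± 0.09) was not called.

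Across the 18 deeper libraries, the log2 CPM of the 10 genes went together to different degrees. Pearson's r is given here as a description over libraries that share treatments, not as a test. Nfkb1 correlated most with Nfkb2 and Nfkbib (0.998 each). The lowest values were those of Nfkbiz with Rela (0.855) and with Nfkb2 (0.856), but Nfkbiz stood at 0.983 with Nfkbia and 0.979 with Rel. Rel and Nfkbia stood at 0.993. Among genes outside the 10 whose log2 CPM averaged 4 or more, the profiles nearest to Nfkb1 and to Nfkb2 were those of Slc7a2, Ccrl2 and Rab11fip1, with r of 0.9982 to 0.9992. Those nearest to Rel were Irak3, Zc3h12a and Rilpl2, to Rela Rab11fip1, Il6 and Pabpc1, and to Relb Klf7, Ywhag and Snx18. The nearest to Nfkbia were Junb, Pde4b and Socs3, to Nfkbib Ebi3, Cd40 and Slc7a2, and to Nfkbie Tgm2, Lcp2 and Ywhag. Nfkbiz was nearest to Icosl, Sh3bp5 and Cd83, with r of 0.9915 to 0.9954, and Bcl3 to Dram1, Rhbdf2 and Gch1. Of these neighbours, Ccrl2 and Cd83 are in the list of primary targets, Il6 in that of secondary genes, Irak3 in that of the receptor-proximal chain and Zc3h12a in that of other regulators.

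The order of the 10 groups by mean TMM-normalised CPM differed between genes in a few places. For Nfkb1, Nfkb2, Rela, Relb, Nfkbia, Nfkbib, Nfkbie and Bcl3 the 2 highest groups were WT at 6 h with either ligand. On TMM, LPS and LTA did not differ beyond their spread there for Nfkb1, Nfkb2, Rela and Nfkbia. With total counts Nfkb2 (-0.15), Rela (-0.14) and Nfkbia (-0.09) were called lower with LPS than with LTA, and Nfkb1 was not called. As CPM of the library total the 2 highest groups were the same for Nfkb1, Nfkb2, Nfkbia, Nfkbib and Bcl3 only. On that scale KO with LPS at 2 h was highest for Nfkbie (155, beside 138 and 114 in WT with LTA and LPS at 6 h) and for Rela (139, beside 133 and 120.3). For Relb it stood at 161, between the 169 of WT with LTA and the 135 of WT with LPS at 6 h. On TMM the third place went to KO with LPS at 2 h for Nfkb2, Rela, Relb, Nfkbib, Nfkbie and Bcl3, to KO with LTA at 6 h for Nfkb1 and to KO with LPS at 6 h for Nfkbia. For Rel, KO with LPS at 2 h and both WT groups at 6 h overlapped at the top on TMM. For Nfkbiz the order was KO with LPS at 2 h, WT with LPS at 2 h and KO with LTA at 2 h, none of which overlapped the next on either scale, and then, on TMM, 5 groups between 398 and 499.8 CPM in which each overlapped the next. The untreated groups were lowest for all 10 genes on both scales, and their genotypes overlapped for Rel and Rela.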

How the data were processed

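RNA from 30 cultures of mouse bone marrow-derived macrophages was counted per gene, and the authors deposited 1 table of estimated counts, not normalised, for 32361 gene IDs; 25.2% of the values above 0 are not whole and were rounded. The submitters' processing notes list Subread 2.1.1, featureCounts, SAMtools 1.22.1, STAR 2.7.11 and fastp 0.24.0 and the builds mm10 and GRCm38, but no settings, and the labels name neither a strand setting nor the RNA selection. Symbols and positions come from a GENCODE annotation of GRCm38 (26314 IDs named) and promoter sequences from RefSeq on GRCm38.p6.

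All columns were matched to samples by name. Genes passing edgeR's filterByExpr (minimum count 10, total 15) numbered 15131. The main test was edgeR's quasi-likelihood test (edgeR 4.0.16, R 4.3.3) with TMM factors, robust dispersion and a coefficient for each of 10 groups, fitted to the 30 libraries together (residual df 20, common biological coefficient of variation 0.0411), with Benjamini-Hochberg adjustment within each of 25 contrasts at 0.05; the standard error is the fold change over the square root of F. The 2 h libraries held 1334784 to 2658329 counts and the others 10641070 to 13521660. Correlations used log2 CPM with a prior count of 2. The test was checked on simulated data in which few genes changed, up or down at random. That check held no shift of scale between the genotypes, so it cannot decide between the scalings. Tables and plots used Python 3.11.15, pandas 2.3.3 and matplotlib 3.10.9.

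Besides the 10 genes and Ticam2, the genes named were the 3 with the smallest p in KO against WT with LPS at 6 h from each other list, and for each of the 10 the 3 genes with a symbol, outside the 10, of highest Pearson r over the 18 untreated and 6 h libraries whose log2 CPM averaged 4 or more; others are marked in the text. The genes and lists were chosen with earlier results of these data known. Alternatives were DESeq2 1.42.0, relative log expression factors, total counts, no filter, the compared groups alone, a replicate block and leaving out each library. Shares of all genes called are on TMM, except that of genes called at both times, which is also given with total counts. Protein sequences were not used here.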

Additional observations from a re-analysis of the deposited data

Results flagged for a closer look

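The genotypes differed in the effect of the same treatment for most of the 10 genes, by edgeR's quasi-likelihood test of that difference itself (KO minus WT, log2, TMM). For the response to LPS at 6 h the differences were Nfkb1 (-1.55), Nfkb2 (-1.68), Rel (-0.45), Rela (-0.77), Relb (-0.49), Nfkbia (-0.12), Nfkbib (-1.44), Nfkbie (-0.95) and Bcl3 (-1.32). For LTA at 6 h they were Nfkb1 (-1.50), Nfkb2 (-1.79), Rel (-0.59), Rela (-0.76), Relb (-0.78), Nfkbia (-0.21), Nfkbib (-1.36), Nfkbie (-1.13) and Bcl3 (-0.73). All of these were below 0 on TMM; with total counts Nfkbia was above 0 with both ligands, and Rel and Relb with LPS stood at 0.05 and 0.01 and Rel with LTA at -0.17 (edgeR adjusted p = 0.096), none of them called.

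At 2 h the genes with a larger response in KO to LPS were Nfkb1 (1.17), Nfkb2 (1.38), Rel (0.67), Rela (0.64), Relb (1.27), Nfkbia (0.95), Nfkbib (0.81), Nfkbie (1.21), Nfkbiz (0.48) and Bcl3 (1.32). To LTA they were Nfkb1 (1.04), Nfkb2 (1.32), Rel (0.48), Rela (0.65), Relb (1.35), Nfkbia (0.99), Nfkbib (0.88), Nfkbie (1.18), Nfkbiz (0.55) and Bcl3 (1.18).

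The KO-to-WT difference at 6 h minus that at 2 h was, with LPS, Nfkb1 (-2.72), Nfkb2 (-3.06), Rel (-1.12), Rela (-1.41), Relb (-1.77), Nfkbia (-1.07), Nfkbib (-2.25), Nfkbie (-2.16), Nfkbiz (-0.36) and Bcl3 (-2.64). With LTA it was Nfkb1 (-2.54), Nfkb2 (-3.11), Rel (-1.07), Rela (-1.41), Relb (-2.14), Nfkbia (-1.21), Nfkbib (-2.24), Nfkbie (-2.30), Nfkbiz (-0.60) and Bcl3 (-1.91). With total counts Nfkbiz was 0.25 with LPS and was not called with LTA. A difference between the library sets that depends on genotype cannot be told apart from time in these values.

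The difference between LPS and LTA at 6 h itself differed between genotypes for Relb (0.29) and Bcl3 (-0.59) on TMM. These 2 of the 10 genes are near the share of 22.7% called over all genes. With total counts it was called for 7 of the 10, so which genes differed depended on the scaling. These contrasts share libraries, so they are not independent of each other, and what lies behind them was not tested.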

How the results depend on the processing

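Of 250 single-gene differences (10 genes in 25 contrasts), DESeq2 kept direction and call in 247, relative log expression factors in 249, and no filter on low counts and a fit of only the groups compared in 248 each. Total counts kept 226. They reversed KO against WT for Rel (0.025) and Nfkbiz (0.477) with LPS and Nfkbiz (0.227) with LTA at 6 h, and Nfkbia in WT between the ligands at 6 h (-0.092). They also reversed the genotype difference in the 6 h response for Rel (0.051), Relb (0.013) and Nfkbia (0.379) with LPS and Nfkbia (0.202) and Nfkbiz (0.372) with LTA, and for Nfkbiz between 6 h and 2 h of LPS (0.248). They raised the genes called between the ligands in WT at 6 h from 4 to 8. For the genotype difference of that contrast the count rose from 2 to 7. No share of all genes with total counts is given beside these counts. Scaling to all counts moves every value of a contrast alike. Leaving out 1 library in turn gave counts of 0 to 1 for KO LPS against LTA at 6 h, 3 to 5 for it at 2 h (6 with all libraries) and 2 to 4 for the genotype difference of LPS against LTA at 6 h.

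The labels name 3 animals per genotype for all conditions but do not tie a replicate number to an animal. Within a group, pairs of libraries differed by a chi-square per gene of 1.112 to 9.548, where counting noise alone gives about 1. The closest pairs thus held little spread beyond counting noise. Whether the standard errors hold the full spread between animals was not tested. Same-numbered libraries of 1 genotype did not deviate together (median r 0.01, 2 of 60 pairs over 0.1), so the block is only an alternative. With a replicate block the genes called in untreated KO against WT were 7 in place of 6 (Nfkb1 added, edgeR adjusted p = 0.048, as with DESeq2), the genotype difference in the LPS 6 h response 8 in place of 9 (Nfkbia lost, edgeR adjusted p = 0.055), and that of LPS against LTA at 6 h 3 in place of 2. It changed no other call. The 2 h libraries, 6.93 times shallower by the median, limit small differences there most, and the 2 h responses carry the difference between library sets.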
